A study of Homo sapiens with 23 samples.

Results

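The HOX cluster genes are the 39 genes of the deposited expression table whose symbol is HOXA, HOXB, HOXC or HOXD followed by a paralog number, out of 35438 genes listed. They comprise 11 HOXA, 10 HOXB, 9 HOXC and 9 HOXD members. They were followed in 23 poly(A) RNA-seq libraries of human melanoma cells. Clones 7, 8 and 9 had become vemurafenib-resistant and were kept with 1 µM of this drug, which blocks mutant BRAF. Clones 10, 11, 12 and 13 had become resistant to the BRAF inhibitor dabrafenib used with the MEK inhibitor trametinib, and were kept with 250 nM of dabrafenib plus 2.5 nM of trametinib. They were set against untreated WM989 A6-G3 cells, the drug-naive line from which all 7 clones were grown. Each group had 3 libraries, apart from clone 11 with 2. Every sample carries the genotype label WT, WM989 A6-G3 was itself passed through single-cell bottlenecks, and each clone came from 1 isolated colony. Drug was present in the medium of the clones and absent from that of untreated cells, so that resistance and exposure to drug cannot be told apart.

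HOX genes encode homeodomain transcription factors that give embryonic cells their position along the body axis. Within a cluster the genes lie in the order of their paralog numbers, with low numbers active early and towards the head and high numbers later, towards the tail and the ends of the limbs. Many adult cell types keep a HOX pattern that reflects where in the body they arose. HOX proteins bind DNA together with TALE homeodomain partners (the PBX, MEIS and PKNOX families), and the clusters are held silent by Polycomb complexes and active by trithorax complexes.

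In the GENCODE annotation (GRCh38) the HOXA members lie on the minus strand at chr7:27092993-27200106, and the HOXB members on the minus strand at chr17:48528526-48729178. The HOXC members lie on the plus strand at chr12:53938765-54056030, and the HOXD members on the plus strand at chr2:176092891-176190907. The genes are packed closely enough that 8 members share exonic bases with another member on the same strand. HOXC6 and HOXC4 share 484 exonic bases, which are 13.7% of HOXC6. HOXD4 and HOXD3 have 80.5% and 62.2% of their exonic bases inside AC009336.2, an overlapping gene model on their strand. HOXC5 has 33.9% of its exonic bases inside a further model of that kind, AC012531.2. The estimation can divide reads between such genes, and levels of these members are uncertain to that extent. A total of 19 members have exonic bases under a gene on the opposite strand, 50.1% of them for HOXD1 and 31.1% for HOXA11. The labels name no strand setting, so reads from such antisense genes cannot be told apart from those of the member.

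Sequences upstream of transcription starts were given by RefSeq (GRCh38.p14) for 20 of the 39 members, in 27 windows of 300 bases that run from 250 before to 50 after a start. The 3 upstream stretches below belong to HOXD1 and HOXD13, at the opposite ends of the HOXD cluster and with every clone library below every untreated library, and to the start that HOXC4 and HOXC5 share in RefSeq. They are on the plus strand at chr2:176188418-176188667, chr2:176092471-176092720 and chr12:54016638-54016887, written 5′ to 3′. Capitals mark the letters CACGTG of an E-box in both HOXD stretches. In that of HOXD13 they also mark TATAAA of a TATA box, found on both strands with overlap. In the stretch of HOXC4 and HOXC5 they mark the M-box core CATGTG.
HOXD1: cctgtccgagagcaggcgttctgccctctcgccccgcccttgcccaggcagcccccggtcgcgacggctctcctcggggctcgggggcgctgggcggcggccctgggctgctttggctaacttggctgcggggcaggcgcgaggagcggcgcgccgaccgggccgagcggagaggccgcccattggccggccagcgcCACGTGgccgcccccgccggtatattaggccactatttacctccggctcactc
HOXD13: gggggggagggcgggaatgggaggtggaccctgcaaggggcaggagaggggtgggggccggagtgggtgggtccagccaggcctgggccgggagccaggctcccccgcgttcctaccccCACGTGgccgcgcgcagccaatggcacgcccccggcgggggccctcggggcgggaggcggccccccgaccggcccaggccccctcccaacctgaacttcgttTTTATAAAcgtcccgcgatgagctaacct
HOXC4 and HOXC5: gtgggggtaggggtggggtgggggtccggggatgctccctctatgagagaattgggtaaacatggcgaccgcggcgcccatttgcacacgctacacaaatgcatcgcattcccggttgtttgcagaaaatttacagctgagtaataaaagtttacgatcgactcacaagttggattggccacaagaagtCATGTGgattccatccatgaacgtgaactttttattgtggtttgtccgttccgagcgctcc

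Over all 27 windows, read on both strands, CACGTG was found in 9, CATGTG in 9 and TATAAA in 5. Among the 35116 RefSeq windows of all genes, these letters were in 7.256%, 11.098% and 11.53%. The PBX-HOX letters TGATTNAT were in 2 HOX windows, against 2.816% of all windows. The AP-1 letters TGANTCA were in 0 of the 27 HOX windows, against 7.709% of all. HOX windows held between 0 and 44 CpG, with 20 or more in 15 of 27, against 41.161% of all windows. Several windows belong to 1 gene or overlap in use, and the matches are a description of letters only.

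Levels below are TPM, which is per transcript length, put on a common scale across libraries (trimmed log ratios). Sequencing depth is unknown, since TPM keeps none. The melanocyte markers fell together: all 6 of 6 (MITF, SOX10, PMEL, TYR, MLANA and DCT) passed the test, and their summed level was 20.9 to 465 TPM in clone libraries, against 11951 to 12317 TPM in untreated libraries. Of 9 fibroblast markers, 8 were tested and all 8 rose, with a summed level of 2120 to 7855 TPM in clone libraries and 59.5 to 69.0 TPM in untreated libraries. Most of the melanocyte sum in untreated cells was PMEL (9864 TPM), and most of the fibroblast sum in clones was COL1A1 (clone means of 2013 to 6187 TPM). COL1A2 had clone means of 3.17 to 366 TPM. TWIST2 was called higher in 5 of 7 clones, and the other fibroblast markers tested in all 7. THY1, the ninth, averaged at most 0.437 TPM in a clone and 0.0331 TPM in untreated cells. Keratinocyte (KRT5, KRT14, KRT1, KRT10) and endothelial (PECAM1, CDH5, VWF, TIE1) marker lists had 0 called members in limma's test of the mean of the clones. At its unadjusted p under 0.05, 2 and 3 members passed. In single clones, VWF was called higher in 3, PECAM1 in 1 and KRT14 in 1, and no tested member of either list was called lower. KRT5, KRT1 and CDH5 stayed at or under 0.0478 TPM in every group mean. KRT10 had clone means of 9.19 to 16.3 TPM, against 8.70 TPM in untreated cells. Among immune markers CD68 rose, and CD3E averaged at most 0.00772 TPM in a clone and 0.0147 TPM in untreated cells. Among Schwann and neuronal markers, SNAP25 rose. These marker lists moved with the same contrast as the HOX members below, and their part in the HOX results was not tested. In bulk RNA, fewer cells of a type and less RNA per cell cannot be told apart. Clone 10 replicate 1 stood apart from the other libraries: 14415 genes were above 0 in it, against 18671 to 24039 in the others, and 20 genes were at 0 there that had at least 5 TPM in every other library. HOXA6, HOXA7, HOXA13, HOXB7 and HOXB8 were among the HOX members listed at 0 in that library. For clone 10, HOXB7, HOXB8 and HOXB9 calls, the HOX sum, HOXB and HOXC shares and the profile are given with and without that library. Other clone 10 values below include that library unless stated.

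WM989 A6-G3 cells and their resistant clones expressed members of all 4 clusters, from low to high paralog numbers. HOXB2, which patterns the hindbrain in the mouse, had the highest level in untreated cells and in each clone but 1, with clone means of 32.6 to 55.0 TPM and 50.7 ± 2.73 TPM in untreated cells (SD, n = 3). HOXC10, a gene of the lumbar region in the mouse embryo, came next with clone means of 25.3 to 42.5 TPM and 25.1 ± 0.89 TPM in untreated cells, and in clone 10 it was above HOXB2, at 34.3 TPM. That order rests on clone 10 replicate 1 (40.9 TPM of HOXC10 and 19.7 TPM of HOXB2), since HOXB2 was the higher in replicates 2 and 3. Behind these, the order differed between clones and untreated cells. Over the mean of the clone means, HOXD8 (16.4 TPM), HOXB9 (14.2 TPM), HOXC6 (14.1 TPM), HOXC4 (12.2 TPM), HOXD3 (12.0 TPM) and HOXA4 (10.2 TPM) followed. In untreated cells HOXB9 (24.8 ± 0.645 TPM) was level with HOXC10 within the SD. HOXC4 (18.0 ± 1.19 TPM) came next, and then HOXD8 (13.5 ± 0.704 TPM) and HOXD13 (13.5 ± 0.672 TPM), which were within an SD of each other. HOXC6 ranked 5 of the 39 members in clones, against 15 in untreated cells, and HOXC8 ranked 17 against 27. HOXA3 ranked 18 in clones, against 8 in untreated cells, and HOXD1 ranked 30 against 17.

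**Figure D1:**
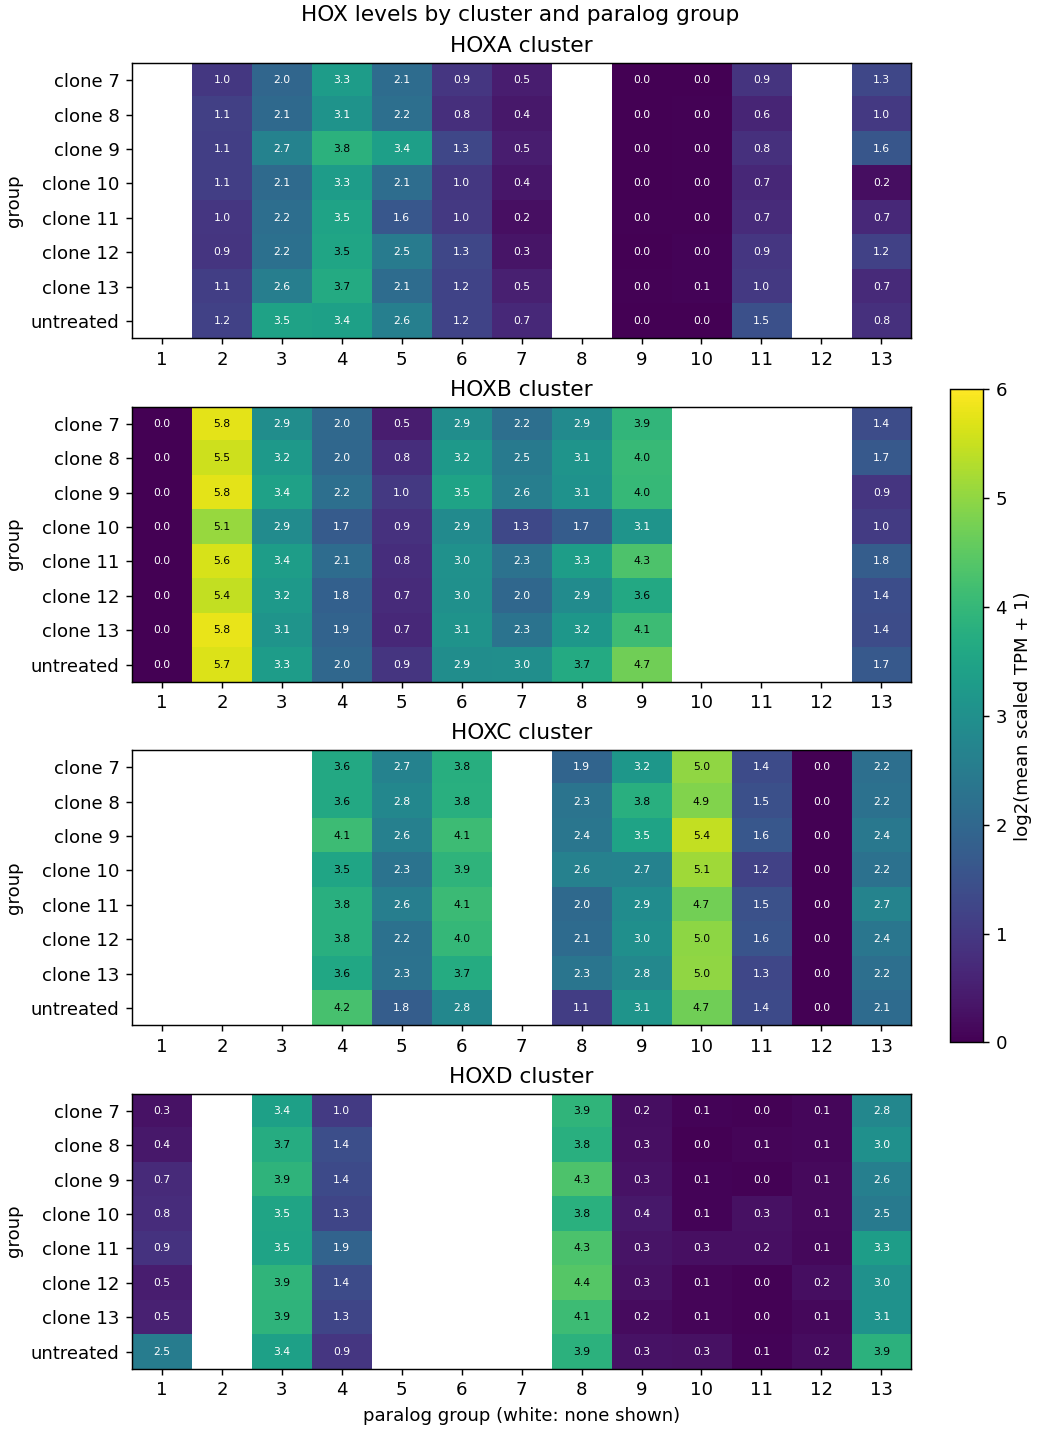
Mean level of the HOX members reported as log2(mean scaled TPM + 1), by cluster (panels), paralog group (columns) and group (rows, clones 7 to 13 above untreated). HOXB2 and HOXC10 are the brightest cells in every row, and HOXA9, HOXA10, HOXB1 and HOXC12 are at or near 0 throughout.

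At the low end, 9 members were under 1 TPM in every library and were not tested: HOXA7, HOXA9, HOXA10, HOXB1, HOXC12, HOXD9, HOXD10, HOXD11 and HOXD12. Of these, HOXA9, HOXA10, HOXB1 and HOXC12 were under 0.1 TPM in every library. HOXB1, the hindbrain gene at the end of its cluster, was listed at 0 in 21 of 23 libraries and reached 0.0152 TPM in a clone 7 library. HOXA9, best known for its part in leukaemia, was listed at 0 in 19 of 23 libraries, and its highest level was 0.0456 TPM. The low members formed a run in the HOXD cluster, from HOXD9 through HOXD12, with the highest level of HOXD11 at 0.581 TPM and of HOXD10 at 0.305 TPM. HOXD8 and HOXD13, on either side of that run, had clone means of 12.9 to 20.5 TPM and 4.56 to 9.15 TPM. The HOXA cluster had a low run from HOXA7 through HOXA10, but its neighbours were low in clones too. These were HOXA6 (clone means of 0.752 to 1.43 TPM) and HOXA11 (0.547 to 0.990 TPM). HOXA7 averaged 0.618 ± 0.157 TPM in untreated cells, so that only HOXA9 and HOXA10 in this run were near 0. The HOXB and HOXC clusters each had 1 member under 1 TPM in every library. At the other end, 17 members had at least 1 TPM in all 23 libraries and 8 averaged at least 10 TPM.

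Summed over all 39 members, HOX expression lay between 191 ± 20.1 TPM in clone 10 and 283 ± 14.4 TPM in clone 9 (SD, n = 3 each), with 255 ± 8.28 TPM in untreated cells (n = 3). Without clone 10 replicate 1, clone 10 was still the lowest at 202 ± 8.05 TPM (n = 2). The HOXC cluster made up 29.9% to 41.4% of this sum in clones, against 25.4% in untreated cells. The HOXB cluster made up 31.5% to 42.7% in clones, against 45.3% in untreated cells. Clone 10 gave the highest HOXC share and the lowest HOXB share, which were 37.9% and 34.9% without its replicate 1. In TPM, the HOXC sum was 72.6 ± 5.99 TPM in clone 13 (n = 3), the lowest clone, and 101 ± 8.30 TPM in clone 9 (n = 3), against 64.8 ± 1.80 TPM in untreated cells (n = 3). The lowest clone 13 library had 66.6 TPM of HOXC members, inside the untreated range, whose highest value was 66.9 TPM. By paralog number, groups 5 to 8 made up 25.2% to 28.4% of the sum in clones, against 21.9% in untreated cells. Paralog groups 9 to 13 made up 28.6% to 31.7% in clones, against 31.8% in untreated cells. Across the 39 members, the log2 profile of each clone correlated with that of untreated cells with a Pearson r of 0.883 (clone 10) to 0.942 (clone 13) and a Spearman rho of 0.888 to 0.938. Without clone 10 replicate 1, r was 0.897 and rho 0.899 in clone 10, still the lowest of the 7 clones. These are descriptions over genes that share libraries, and genes are not independent replicates.

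The first comparison asked which members differed between the resistant clones, taken as the unweighted mean of 7, and untreated cells. Of 30 members tested, 2 rose (HOXC6 and HOXC8) and 2 fell (HOXD1 and HOXA3), where a call needs an absolute log2 difference of at least 1 and an adjusted p below 0.05, adjusted across all genes. Among all 15657 genes tested, 10.9% were called higher and 7.91% lower, beside 6.67% of members in each direction, which is near the background. The median absolute log2 difference was 0.28 over members and 0.42 over all genes. The median log2 difference was -0.08 over members and -0.01 over all genes, and 13 of 30 members were above 0. Without scaling between libraries the median of all genes was 0.14 and 17 of 30 members were above 0. At an adjusted p under 0.05 with no minimum fold, 15 of 30 members passed, against 56.6% of all genes. By cluster, the calls were 1 lower of 8 tested in HOXA, 0 of 9 in HOXB (4 lower and 0 higher at limma's unadjusted p under 0.05), 2 higher of 8 in HOXC and 1 lower of 5 in HOXD. The share of all genes at that unadjusted p was not counted. The SE and p-values of the mean of the clones come from the spread between libraries within groups. They do not measure the spread between clones. All log2 differences are on the scale of log2(scaled TPM + 1), which understates the change of low genes.

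**Figure D2:**
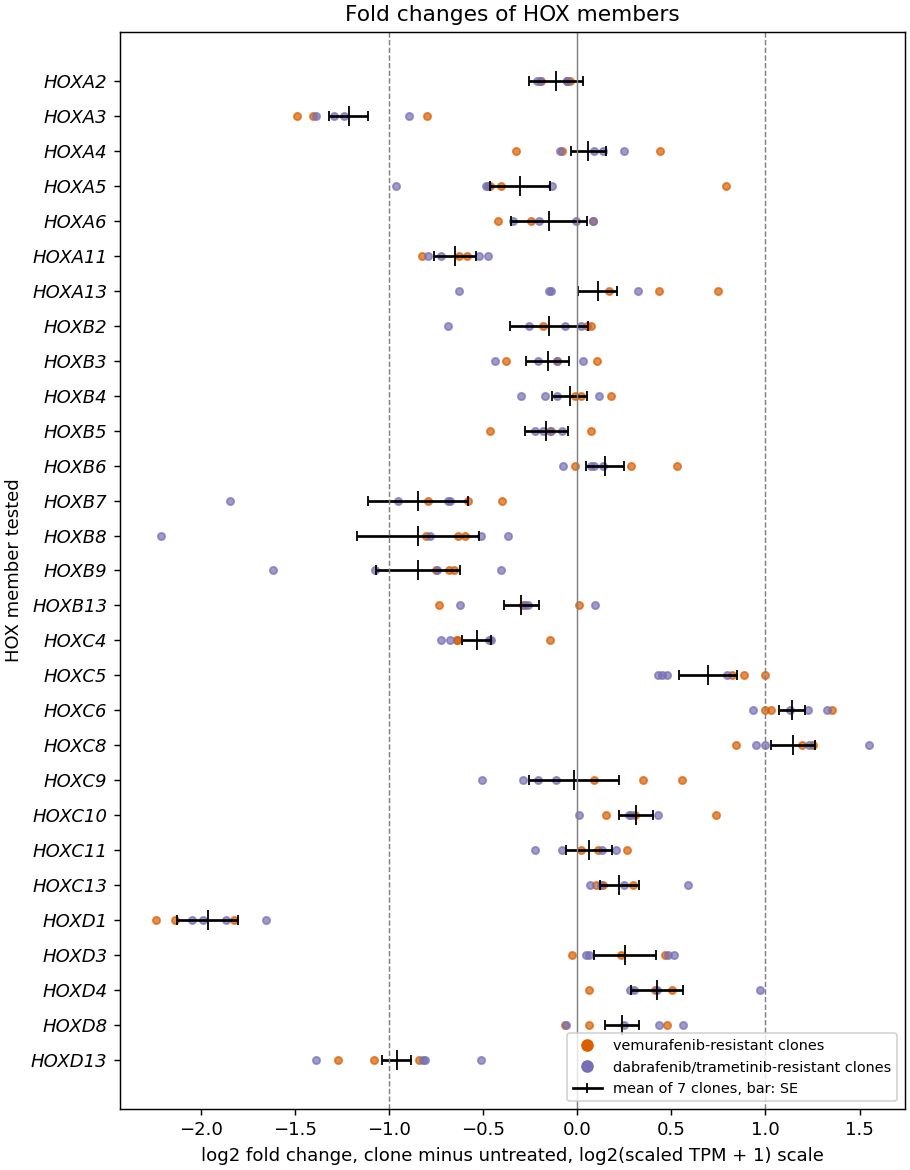
Log2 difference of 29 tested HOX members, clone minus untreated, on the log2(scaled TPM + 1) scale. Points are the 7 clones by drug, black ticks the mean of the clones with its SE as a bar, and dashed lines the fold minimum of 1. HOXC6 and HOXC8 lie at or near the upper line and HOXD1 lies past the lower line in every clone.

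HOXC6, which marks the brachial and thoracic level of the mouse embryo, rose in the clones. Its level was 11.7 TPM in the lowest of 20 clone libraries, 13.7 TPM in the median and 17.0 TPM in the highest, against 6.17, 5.44 and 5.82 TPM in the untreated libraries. Every clone library lay above every untreated library. The log2 difference was 1.14 ± 0.071 (SE, adjusted p = 5.74e-11). By clone, HOXC6 was called higher in 5 of 7, with 1.35 in clone 9 and 1.33 in clone 11 at the top. It was just under the minimum in clone 7 (0.997) and clone 13 (0.93), and the value in clone 7 passed it without clone 7 replicate 1 or 2, clone 8 replicate 3 or untreated replicate 1, at most at 1.03. The call in clone 8, at 1.03, was lost without clone 8 replicate 1 or untreated replicate 2, where the lower value was 0.99.

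HOXC8, a neighbour of HOXC6 that acts in brachial motor neurons of the mouse, rose as well. It had 2.56 TPM in the lowest, 3.56 TPM in the median and 5.73 TPM in the highest of 20 clone libraries, against 1.30, 1.16 and 0.965 TPM in untreated libraries. The clone and untreated libraries did not overlap. The log2 difference was 1.15 ± 0.12 (SE, adjusted p = 7.72e-08), and with a pseudocount of 0.1 it was 1.63. It was called higher in clones 8, 9, 10 and 13, with the largest value in clone 10 (1.55).

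HOXC5, which lies between HOXC4 and HOXC6 in paralog number, was above untreated on average in all 7 clones but did not reach the fold minimum. It had 2.24 TPM in the lowest, 4.86 TPM in the median and 6.60 TPM in the highest clone library, against 2.47, 2.44 and 2.37 TPM in untreated libraries. Of 20 clone libraries, 19 were above all untreated libraries and 1, in clone 13, was below them. The log2 difference was 0.69 ± 0.16 (SE, adjusted p = 0.000879). HOXC4, whose RefSeq start is the one printed above, differed the other way: 9.66 TPM in the lowest, 11.6 TPM in the median and 18.3 TPM in the highest clone library, against 19.3, 17.9 and 16.9 TPM in untreated libraries. Its log2 difference was -0.53 ± 0.075 (adjusted p = 6.08e-06), also short of the minimum. HOXC4 and HOXC6 share exonic bases, and they differed from untreated cells in opposite directions.

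HOXD1, an anterior gene that acts in sensory neurons of the mouse, fell further than any other member tested. It had 0.0597 TPM in the lowest, 0.406 TPM in the median and 1.66 TPM in the highest clone library, against 4.70, 4.73 and 4.91 TPM in untreated libraries. All 20 clone libraries were below all untreated libraries, and the highest of them was clone 10 replicate 1. The log2 difference was -1.96 ± 0.16 (SE, adjusted p = 3.28e-09), and -3.18 with a pseudocount of 0.1. HOXD1 was called lower in all 7 clones, from -2.24 in clone 7 to -1.65 in clone 11, as were 4.18% of all genes tested. No member was called higher in all 7 clones, as were 4.87% of all genes. Limma gave HOXC5, HOXC6, HOXC8, HOXC10, HOXC13 and HOXD4 a positive difference in every clone. It gave HOXA2, HOXA3, HOXA11, HOXB7, HOXB8, HOXB9, HOXC4, HOXD1 and HOXD13 a negative difference in every clone. The share of all genes with the same sign in every clone was not counted.

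HOXA3, which is needed for organs of the pharyngeal arches in the mouse, also fell. It had 2.55 TPM in the lowest, 3.51 TPM in the median and 5.76 TPM in the highest clone library, against 9.98, 9.90 and 9.91 TPM in untreated libraries. The 2 kinds of library did not overlap. The log2 difference was -1.21 ± 0.10 (SE, adjusted p = 5.71e-09). It was called lower in clones 7, 8, 10, 11 and 12, from -1.48 in clone 7 to -1.24 in clone 12. Clone 9 (-0.80) and clone 13 (-0.89) were short of the minimum.

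HOXD13, the most posterior HOXD gene, which shapes the digits, had 3.96 TPM in the lowest, 6.65 TPM in the median and 9.48 TPM in the highest clone library. Untreated libraries had 14.2, 12.8 and 13.4 TPM, above all 20 clone libraries. The log2 difference of -0.96 ± 0.079 (SE, adjusted p = 3.67e-09) missed the fold minimum in the mean of the clones. With a pseudocount of 0.1 it was -1.06 and called. It was called lower in clones 7 (-1.08), 9 (-1.27) and 10 (-1.39).

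HOXA11, a gene of the forelimb and the uterus, had 0.482 TPM in the lowest, 0.672 TPM in the median and 1.34 TPM in the highest clone library, against 1.88, 1.72 and 1.62 TPM in untreated libraries. The libraries did not overlap, and the log2 difference was -0.65 ± 0.11 (SE, adjusted p = 7.47e-05). With a pseudocount of 0.1 it was -1.14 and called. In all, every clone library lay above every untreated library for 2 members (HOXC6 and HOXC8), as for 14.5% of all genes. Every clone library lay below for 4 members (HOXA3, HOXA11, HOXD1 and HOXD13), as for 13.3% of all genes.

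**Figure D3:**
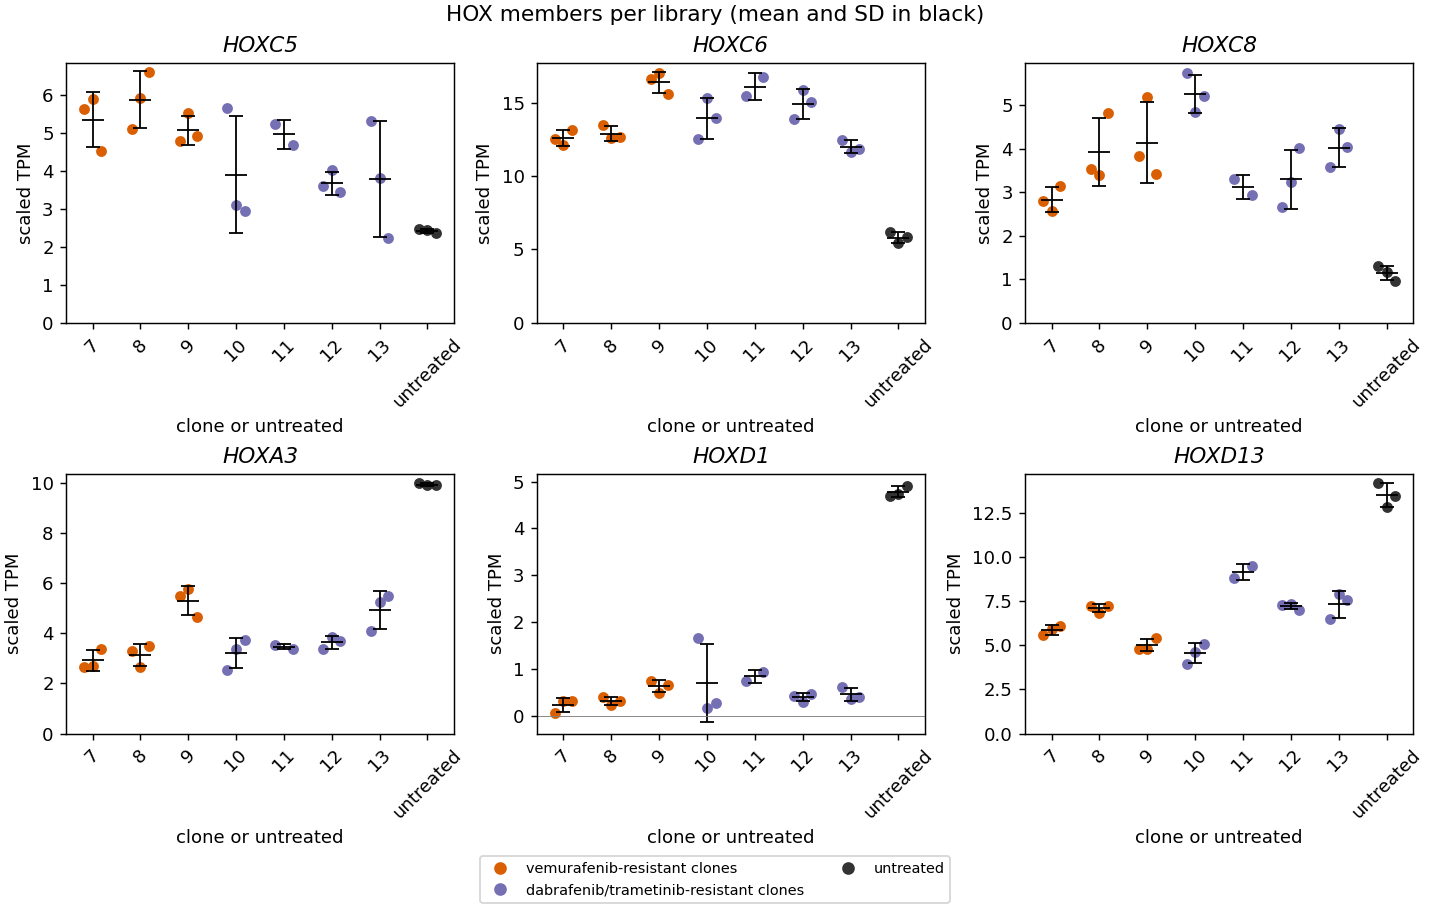
Scaled TPM of 6 HOX members in each library (points), with the mean and SD of each group in black, clones 7 to 13 left of untreated. HOXC6 and HOXC8 are above untreated in every clone library, HOXA3, HOXD1 and HOXD13 below it, and HOXC5 is above it in 19 of 20.

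In each paralog group with a called member, the others of that number were not called in the mean of the clones. In group 3, HOXA3 fell by 1.21 on the log2 scale, with -0.16 for HOXB3 (0.0043 without scaling between libraries) and 0.26 for HOXD3. In group 6, HOXC6 rose by 1.14, with -0.15 for HOXA6 and 0.15 for HOXB6. Group 8 held HOXC8, which rose by 1.15, beside values of -0.84 for HOXB8 and 0.24 for HOXD8. In group 13, where HOXD13 at -0.96 was itself short of the fold minimum, values were 0.11 for HOXA13, -0.30 for HOXB13 and 0.22 for HOXC13. Differences between paralogs were not themselves tested.

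Clone by clone, between 2 and 8 of the 30 tested members were called against untreated cells, and 8 members were called in at least 1 clone, against 38% of all genes. Clone 7 had 0 members called higher and 3 lower (HOXA3, HOXD1 and HOXD13), against 11% and 8.54% of all genes. With limma's unadjusted p under 0.05 and no minimum fold, 5 members were higher and 12 lower in clone 7. HOXC5, HOXC6 and HOXC8 were among those higher. At limma's adjusted p under 0.05 and any fold, 43.3% of members passed in clone 7, against 47.4% of all genes. Clone 8 had 2 higher (HOXC6 and HOXC8) and 2 lower (HOXA3 and HOXD1), against 11% and 9.29%. Clone 9 had 2 higher (HOXC6 and HOXC8) and 2 lower (HOXD1 and HOXD13), against 11.5% and 8.29%. Clone 10 had 2 higher (HOXC6 and HOXC8) and 6 lower (HOXA3, HOXB7, HOXB8, HOXB9, HOXD1 and HOXD13), against 11.8% and 10.5%. Clone 11 had 1 higher (HOXC6) and 2 lower (HOXA3 and HOXD1), against 11.7% and 9.53%. Clone 12 had 1 higher (HOXC6) and 3 lower (HOXA3, HOXB9 and HOXD1), against 11.5% and 8.02%. Clone 13 had 1 higher (HOXC8) and 1 lower (HOXD1), against 12.3% and 8.35%. Without scaling between libraries, clone 7 had 1 higher and 3 lower. Clone 8 then had 3 higher and 2 lower, and clone 11 had 4 higher and 2 lower. For clone 12 these numbers were 2 and 2, while 2 were higher and 1 was lower in clone 13. HOXC5, HOXC8 and HOXD4 were then called higher in clone 11 as well. The share of members called was highest in clone 10, at 26.7% in either direction, against 22.3% of all genes in that clone.

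HOXB7, HOXB8 and HOXB9 lie side by side on chromosome 17 and were lowest in clone 10. HOXB9, a thoracic gene, had 5.65, 7.63 and 9.44 TPM in clone 10, against 25.5, 24.7 and 24.2 TPM in untreated cells. HOXB8 was listed at 0 in clone 10 replicate 1 and had 3.66 and 3.34 TPM in the other libraries of that clone, against 10.3, 11.9 and 12.7 TPM in untreated cells. HOXB7 was listed at 0 in the same library and had 2.59 and 1.80 TPM in the others, against 7.90, 6.45 and 6.00 TPM in untreated cells. No clone 10 library overlapped the untreated libraries for any of the 3 genes. The share of all genes without overlap in clone 10 was not counted, and 10.5% of all genes were called lower in that clone. The log2 differences in clone 10 were -1.61 ± 0.29 for HOXB9, -2.21 ± 0.43 for HOXB8 and -1.84 ± 0.35 for HOXB7 (SE; adjusted p = 0.000127, 0.000253 and 0.000206). Without clone 10 replicate 1 they were -1.43, -1.48 and -1.28, and all 3 were still called.

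In other clones these genes were between clone 10 and untreated cells. HOXB9 was called lower in clone 12, where it had 12.3, 10.4 and 11.1 TPM and a log2 difference of -1.07 ± 0.29 (SE, adjusted p = 0.00512). Without scaling between libraries that difference was -0.88 and not called. In clone 13 its libraries spread widely, at 6.68, 25.6 and 16.9 TPM, and the difference of -0.74 was not called. Without clone 13 replicate 2 that difference was -1.14 and called. In the mean of the clones the differences were -0.85 for HOXB7, -0.84 for HOXB8 and -0.85 for HOXB9 (adjusted p = 0.0107, 0.0336 and 0.00307), under the fold minimum.

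Whether clones differed among themselves was asked with an F test over the 7 clones and a range of at least 1. Of 30 members, 5 passed (HOXA5, HOXA13, HOXB7, HOXB8 and HOXB9), against 25.3% of all genes, and 2 of them (HOXA5 and HOXA13) passed without clone 10 replicate 1. At any range, 19 of 30 passed, against 54.2% of all genes. The median range was 0.66 over members and 0.75 over all genes. The ranges of HOXB7 (1.44), HOXB8 (1.84) and HOXB9 (1.21) were 0.88, 1.12 and 1.03 without that library, with an adjusted p of 0.111, 0.0897 and 0.163. HOXB9 was close to the threshold (adjusted p = 0.0403), and its call was lost when any of 19 single libraries was left out. HOXB7 also lost it without clone 9 replicate 2. HOXA5 and HOXA13 were the 2 that passed with no filter on low genes. With a pseudocount of 0.1, HOXB7 and HOXB8 did not pass, while HOXB13 (range 1.31) was among those that did. Without scaling between libraries, HOXB9 did not pass (adjusted p = 0.108) and HOXD4 did (range 1.04).

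HOXA5, which is needed for lung development in the mouse, was highest in clone 9. It had 9.31, 10.1 and 8.77 TPM in clone 9, 2.19 and 1.96 TPM in clone 11, and 5.49, 4.22 and 5.34 TPM in untreated cells. Every clone 9 library was above every other library, the next being clone 12 replicate 1 with 6.60 TPM. The share of all genes with 1 clone apart in this way was not counted. The range over clones was 1.75 (adjusted p = 0.0001). In pairs of clones, clone 9 was above clones 7 (by 1.25), 8 (by 1.19), 10 (by 1.28), 11 (by 1.75) and 13 (by 1.26), with adjusted p between 1.86e-05 and 0.000507. Against untreated cells, clone 9 differed by 0.79 ± 0.21 (SE, adjusted p = 0.00425), under the fold minimum, and clone 11 by -0.96 (adjusted p = 0.0023). The value of clone 11 passed the minimum without clone 11 replicate 2 or untreated replicate 2, at most -1.06.

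HOXA13, a gene of the distal limb and the urogenital tract at the end of its cluster, was low in clone 10 and high in clone 9. It had 2.41, 1.53 and 2.12 TPM in clone 9, 0.229 and 0.257 TPM in clone 10 replicates 2 and 3, and a listed 0 in clone 10 replicate 1. Untreated cells had 0.755, 0.729 and 0.869 TPM. The range over clones was 1.37 (adjusted p = 3.17e-06), and 1.26 without clone 10 replicate 1. Clone 9 was above clone 10 by 1.37 ± 0.14 (SE, adjusted p = 1.14e-06), and by 1.26 without that library. Clone 7 was above clone 10 by 1.06, a call lost without that library.

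**Figure D4:**
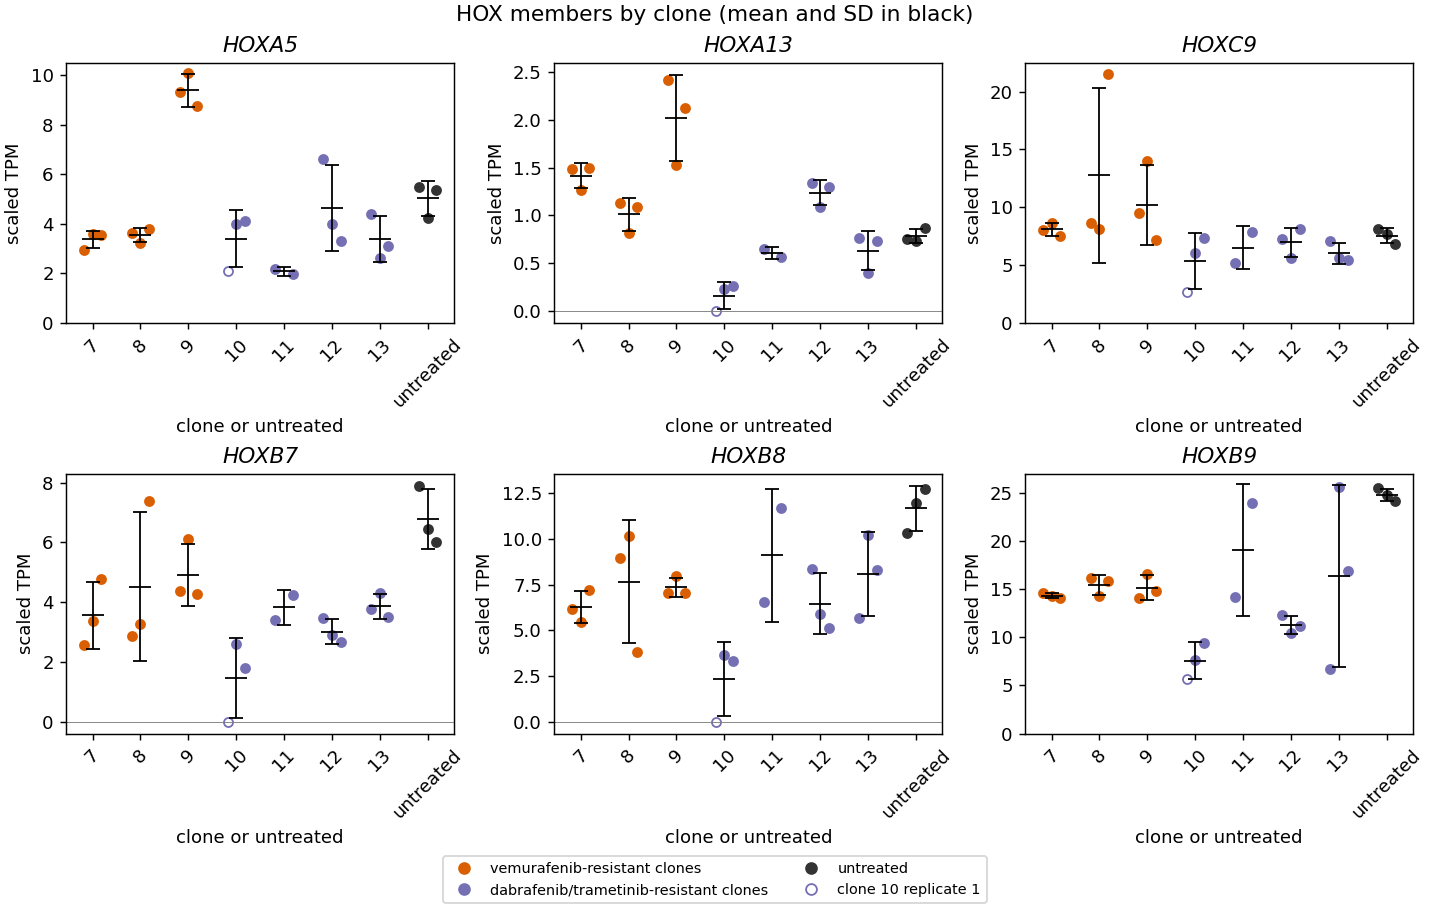
Scaled TPM of 6 HOX members in each library (points), with the mean and SD of each group in black, clones 7 to 13 left of untreated, and clone 10 replicate 1 as an open circle. HOXA5 is highest in clone 9, HOXA13 lowest in clone 10, and HOXB7, HOXB8 and HOXC9 have 1 library far from the others in clone 8.

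Over the 21 pairs of clones, 6 of 30 members were called in at least 1 pair, against 27.6% of all genes. In single pairs, between 1.52% and 12.1% of all genes were called. There were 20 combinations of member and pair, in 10 pairs, and 16 of the 20 involved clone 10. Without clone 10 replicate 1, 8 combinations in 6 pairs were called, 4 of them with clone 10, and all 8 were among the 20. Those 8 were the 5 HOXA5 pairs of clone 9, HOXA13 between clones 9 and 10, and HOXB8 and HOXB9 between clones 10 and 11. HOXC9 was called between clones 8 and 10 alone (1.06, adjusted p = 0.0125). In clone 8 it had 8.60, 8.12 and 21.5 TPM, the last in replicate 3, a library whose correlation with clone 8 replicate 2 was 0.964.

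Between the drug arms, the mean log2 level of each clone was the unit, with 3 vemurafenib clones against 4 dabrafenib/trametinib clones. No member was called by limma (0 of 30), and 2 of all 15657 genes were (0.0128%). At limma's unadjusted p under 0.05, 4 members passed, and the share of all genes that did so was not counted. HOXC9 averaged 10.3 TPM in vemurafenib clones and 6.21 TPM in dabrafenib/trametinib clones, a log2 difference of 0.61 with a 95% interval of 0.22 to 1.00 (limma, adjusted p = 0.236). These HOXC9 means include clone 8 replicate 3 at 21.5 TPM, beside 8.60 and 8.12 TPM in replicates 1 and 2. They also include clone 10 replicate 1 at 2.66 TPM, beside 6.07 and 7.36 TPM in replicates 2 and 3. The log2 difference was 0.60 for HOXA13 (interval 0.04 to 1.16, adjusted p = 0.322) and 0.36 for HOXC5 (interval 0.01 to 0.72, adjusted p = 0.33), which were also among the 4. The members that changed against untreated cells had arm differences of -0.03 (HOXC6, interval -0.38 to 0.33), -0.09 (HOXC8, -0.54 to 0.37), -0.18 (HOXD1, -0.54 to 0.19) and -0.03 (HOXA3, -0.53 to 0.47). Each interval includes differences as large as its bounds.

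Partners and regulators of HOX genes were counted from lists chosen with earlier results of these data known. Of 9 TALE cofactors tested, 1 rose and 1 fell in the mean of the clones, and 5 differed among clones. Among all genes tested, 10.9% rose, 7.91% fell and 25.3% differed among clones, which is the background for the lists below too. MEIS3, the TALE member with the highest level in clones, had 47.2 TPM in the lowest, 61.3 TPM in the median and 108 TPM in the highest clone library, against 13.5, 12.0 and 11.6 TPM in untreated libraries. All clone libraries were above all untreated libraries, and the log2 difference was 2.28 ± 0.12 (SE, adjusted p = 2.59e-12), called in 7 of 7 clones. PKNOX2, a TALE protein related to MEIS, had 2.90 TPM in the lowest, 6.29 TPM in the median and 14.3 TPM in the highest clone library, against 24.6, 25.7 and 26.9 TPM in untreated libraries. It was below untreated in every clone library, with a log2 difference of -1.81 ± 0.20 (SE, adjusted p = 2.41e-07), called in 6 of 7 clones.

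Of 26 Polycomb group genes, 0 rose and 1 fell in limma's test, and 4 differed among clones. At an unadjusted p under 0.05, 6 were higher and 7 lower. The one that fell was JARID2, which helps to bring Polycomb repressive complex 2 to its targets. It had 1.90 TPM in the lowest, 3.49 TPM in the median and 7.40 TPM in the highest clone library, against 10.7, 11.8 and 12.2 TPM in untreated libraries. Its log2 difference was -1.35 ± 0.11 (SE, adjusted p = 5.88e-09), called in 6 of 7 clones. PHC2, a Polycomb repressive complex 1 subunit with the highest level of the list in clones, averaged 89.8 TPM over the clones and 86.5 ± 1.03 TPM in untreated cells. Of 12 trithorax group genes and H3K27 demethylases, 0 rose and 0 fell in limma's test at the fold minimum, with 0 higher and 4 lower at an unadjusted p under 0.05. DPY30, the one with the highest level, averaged 108 TPM over the clones and 87.8 ± 7.80 TPM in untreated cells (log2 difference 0.28, adjusted p = 0.0921). Median log2 differences were -0.31 for TALE cofactors, -0.07 for Polycomb and -0.23 for trithorax genes, against -0.01 for all genes.

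Of the genes that flank the clusters, 12 were tested, of which 0 rose and 1 fell in limma's test, against 10.9% and 7.91% of all genes. At an unadjusted p under 0.05, 3 were higher and 5 lower. SNX10, a sorting nexin gene beside the HOXA cluster, had 0.653 TPM in the lowest, 0.996 TPM in the median and 6.90 TPM in the highest clone library, against 13.8, 14.0 and 14.9 TPM in untreated libraries. Its log2 difference was -2.49 ± 0.11 (SE, adjusted p = 1.54e-13), called in 7 of 7 clones. ATP5G2, the flanking gene with the highest level, averaged 446 TPM over the clones and 668 ± 63.1 TPM in untreated cells (log2 difference -0.61, adjusted p = 0.000514). HOX cluster noncoding RNAs such as HOTAIR were not analysed here.

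**Figure D5:**
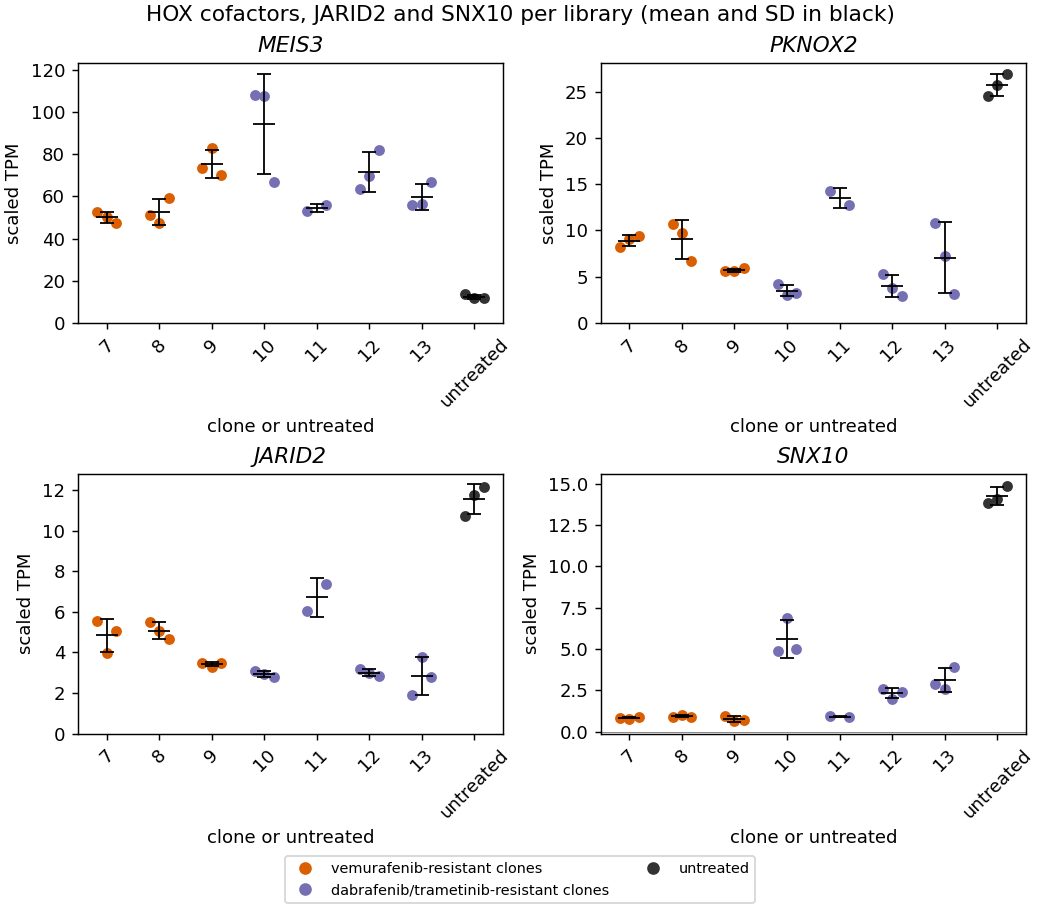
Scaled TPM of MEIS3, PKNOX2, JARID2 and SNX10 in each library (points), with the mean and SD of each group in black, clones 7 to 13 left of untreated. MEIS3 is above untreated in every clone library, and PKNOX2, JARID2 and SNX10 are below it.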

How the data were processed

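Poly(A) RNA of WM989 A6-G3 melanoma cells and 7 drug-resistant clones was sequenced with paired ends after samples were put in random order, per the labels' protocols. The deposited table held 1 value per gene for 35438 genes in 23 libraries. The authors deposited TPM, since each column sums to 1000000. Kallisto and hg19 appear without versions in the submitters' processing notes. Annotation and filters: not given in the sources used here. Depth cannot be had from TPM, so values carry no counting interval and the error is the spread between libraries.

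TPM were scaled by a trimmed mean of log ratios (30% of log ratios and 5% of levels trimmed, 10822 genes), with factors of 0.877 to 1.35. The 15657 genes that reached 1 TPM in 2 or more libraries were tested as log2(scaled TPM + 1) in 1 limma fit (3.58.1, R 4.3.3, eBayes with trend) of 8 groups. A call needed an absolute log2 difference of at least 1 and a p below 0.05 after Benjamini-Hochberg adjustment across these genes. The F test of 6 degrees of freedom needed a range of at least 1. Drug arms were compared on clone means. The labels call the libraries biological replicates without saying what separates them, so p-values may measure technical spread. The test was checked on simulated data.

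All 39 HOX members could be named, although some results are not reported here, and for other lists up to 4 called members with the largest differences and the one with the highest level. Members and lists were chosen with earlier results of these data known. Alternatives were the TPM as deposited, a pseudocount of 0.1, no filter or a stricter one, a replicate block, clone means as the unit and each library left out in turn. Leaving out clone 10 replicate 1 with clone 8 replicate 3, leaving out each clone in the arm comparison, and repeating the pairs of clones were added after seeing the data. Positions are from GENCODE release 29 (GRCh38) and upstream sequences from RefSeq (GRCh38.p14), a build other than the authors' hg19. Among the columns, 0 pairs were identical, a check that cannot find a library measured again with other values.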

Additional observations from a re-analysis of the deposited data

Results flagged for a closer look

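Over the means of the 7 clones, 30 HOX members were checked for a clone far from the others, and chance flags about 1 in 20 such groups. HOXB8 in clone 10 was flagged: its 2.34 TPM lay below the next clone mean of 6.27 TPM, and on the log2 scale the gap was 0.764 of the whole range of clone means. HOXB7 in clone 10 was flagged as well, with 1.46 TPM against 3.01 TPM in the next clone and a gap of 0.617 of the range. Both genes were listed at 0 in clone 10 replicate 1, the library with the fewest genes above 0, and without it the gap of HOXB8 was 0.612 of the range, still past Dixon's critical value for 7 values, while that of HOXB7 was 0.378 and no longer past it. Both stayed called lower in clone 10 without it (log2 differences of -1.48 and -1.28 against untreated cells).

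The response against untreated cells differed among the 7 clones, by the F test, for 5 members. The range of log2 differences was 1.75 for HOXA5, 1.37 for HOXA13, 1.44 for HOXB7, 1.84 for HOXB8 and 1.21 for HOXB9. Without clone 10 replicate 1 the ranges were 1.75, 1.26, 0.88, 1.12 and 1.03, and the first 2 of these genes still passed.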

How the results depend on the processing

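Over 30 members and all alternatives, the log2 difference in the mean of the clones kept its direction and its side of the threshold in 884 of 897 cases. HOXC6 and HOXC8 rose and HOXD1 and HOXA3 fell under every alternative, clone means as the unit included. With the TPM as deposited, the uncalled differences of HOXB2 (0.0267), HOXB3 (0.0043), HOXB4 (0.0941) and HOXC9 (0.138) changed sign. The counts called higher were then 1 in clone 7, 4 in clone 11 and 2 each in clones 12 and 13. With a pseudocount of 0.1, the counts higher and lower were 3 and 5 in clone 7, 4 and 4 in clones 9 and 11, and 2 and 2 in clone 13. There were 2 higher in clone 12, and the mean of the clones had 4 lower, HOXA11 (-1.14) and HOXD13 (-1.06) being the additions. With no filter, 2 members differed among clones. Without clone 10 replicate 1 and clone 8 replicate 3 together, 1 member was higher in clone 7, 2 were higher in clone 12, 3 differed among clones and 9 combinations of member and pair were called. The causes were not tested.

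With each library left out in turn, members called higher were 0 to 1 in clone 7, 2 to 3 in clone 8, 1 to 2 in clone 11 and 1 to 2 in clone 12. Members called lower were 2 to 3 in clone 11, 3 to 4 in clone 12 and 1 to 2 in clone 13. Between 2 and 6 members differed among clones, and the count of pair combinations was 8 without clone 10 replicate 1. HOXC9 in the mean of the clones lay between -0.0779 and 0.0395. The counts of all other comparisons with untreated cells did not move, and the drug arms had 0 members called with any library or clone left out. Several members against untreated cells lay near the fold minimum. HOXC5 in clone 8 (0.99989) and HOXC8 in clone 12 (0.99923) passed it without any of 7 and 8 single libraries, at most at 1.08 and 1.11. HOXC8 in clone 11 (0.95) passed without clone 11 replicate 3 or untreated replicate 1, at most at 1.01. HOXD4 in clone 11 (0.97) passed without clone 11 replicate 2 or untreated replicate 2 or 3, at most at 1.02. HOXB7 in clone 12 (-0.95) passed without clone 12 replicate 1 or untreated replicate 3, down to -1.03. Among clones, HOXC9 passed without clone 8 replicate 2 or clone 10 replicate 3, and HOXD4 without clone 7 replicate 3 (range 1.02).

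Replicate numbers showed no pairing of the libraries in the median, a check that cannot exclude pairing within some groups. Deviations of libraries with the same number correlated between -0.62 and 0.418 (median 0.0143, 77 pairs). Those with different numbers correlated between -0.574 and 0.715 (median -0.00885, 154 pairs). With the replicate block, the mean of the clones had 2 members called higher and 2 called lower, 5 members differed among clones, and no count changed. Clone 11 has 2 libraries, so its values are less precise, and without depth in TPM a 0 cannot be set against a detection limit.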
